A study of Mus musculus with 10 samples.

Results

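The 8 genes described here, Aqp3, Aldh1l1, Susd2, Ly6g6e, Gstm3, Calcoco2, Klf15 and Acss1, were selected on deposited RNA levels: each was far higher in mouse embryonic stem cells labelled 2iL than in cells kept in serum and LIF (SL). They are 8 of the 20494 lines of the deposited table, of which the upper part can be named. Among the 7962 named genes with enough signal to be tested they ranked 1 to 6, 9 and 10 by the difference between 2iL and SL, from 5.74 for Aqp3 to 4.34 for Acss1 on the log2(TPM + 1) scale. Ildr1, at 4.49, and Gsc, at 4.48, hold the ranks between Calcoco2 (4.54) and Klf15 (4.36) and are not in the set, and Eps8l2 followed Acss1 at 4.10. The difference between 2iL and SL therefore chose the genes and is given as a description only. The question asked of each gene was whether its level followed the MEK inhibitor, all serum-free media, or the 2iL label alone.

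The genes belong to different pathways. Aqp3 encodes a membrane channel for water and glycerol. Aldh1l1 encodes the cytosolic dehydrogenase that turns 10-formyltetrahydrofolate into tetrahydrofolate and carbon dioxide, and Acss1 the mitochondrial enzyme that makes acetyl-CoA from acetate. Gstm3 encodes a mu-class glutathione S-transferase, which joins glutathione to electrophiles. Calcoco2, known as NDP52, is in human cells a receptor that delivers bacteria and damaged mitochondria to autophagosomes. Susd2 is a membrane protein with a sushi domain, and in human cells it is a surface marker of naive pluripotent stem cells. Ly6g6e encodes a small LY6-family protein from the major histocompatibility complex region. Klf15 is a zinc finger transcription factor known in liver and muscle for genes of amino acid and glucose metabolism, and it is a known activator of the Acss1 promoter in muscle. Embryonic stem cells in serum signal through FGF, MEK and ERK towards differentiation. The MEK inhibitor PD0325901 blocks that signal, and Chir99021 inhibits the kinase GSK3 and so stabilises beta-catenin.

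The series holds 10 RNA-seq libraries of mouse embryonic stem cells of strain C57BL6X129S6F1, labelled as a cell line, with 2 libraries in each of 5 conditions. All conditions contained 1000 IU mLIF. The 2iL condition was N2B27, a serum-free medium, with 3 µM Chir99021 and 1 µM PD0325901, with feeder cells. The 2iL-F condition had the same additions without feeder cells. A2iL was N2B27 with 3 µM Chir99021 and 1.5 µM CGP77675, a Src inhibitor, and LCDM was N2B27 with 3 µM Chir99021 and the compounds Dim and Mih at 2 µM, and both conditions had feeder cells. SL was KO-DMEM with 15% FBS, without Chir99021, with feeder cells. The serum-free medium and Chir99021 came together in 4 conditions and were both missing from SL, so their shares cannot be told apart. PD0325901 was in 2iL and 2iL-F, whose counterparts A2iL and LCDM contain other compounds in its place. Whether the libraries are separate cultures is not in the labels, and the p-values speak only to the scatter among these libraries, part of which may be technical.

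Values are TPM, a relative transcript abundance scaled by transcript length and library total, so levels can be set side by side between genes. Read depth is unknown. In the upper part of the table, the source of every name here, symbols and values belong together: 99.0% of 101 broadly expressed genes had at least 5 TPM in some library. Replicate libraries correlated at 0.9925 to 0.9939 across genes. Fibroblast markers went against the feeder labels. Their sum over 28 measured of 30 listed genes was 864 to 912 TPM in 2iL, 4970 to 5170 TPM in 2iL-F, 3143 to 3218 TPM in A2iL, 1184 to 1210 TPM in LCDM and 5411 to 5695 TPM in SL. Dcn, Postn, Lox, Acta2 and Bgn were listed at 0 in both libraries labelled 2iL, although that label says feeder cells were present, and all 28 markers had at least 1 TPM in the libraries labelled 2iL-F. Below, 2iL and 2iL-F stand for the label alone. Of 14 embryonic stem cell markers, 6 could be measured, and all 6 were above 1 TPM in every condition. Of 14 ERK readout genes, 14 were lower in 2iL than in SL, and in 2iL-F against SL 11 were lower, 1 higher and 2 not called, where 28.1% of all genes were called higher and 37.3% lower. Spry4, a feedback inhibitor, averaged 0.258 ± 0.0410 TPM in 2iL and 0.386 ± 0.0608 in 2iL-F, against 31.9 ± 0.727 in A2iL, 17.4 ± 0.647 in LCDM and 27.03 ± 1.97 in SL (SD, n = 2 each). Fos, an immediate early gene, averaged 3.39 TPM in 2iL, 160.2 in 2iL-F, 476 in A2iL, 253 in LCDM and 160.5 in SL, so 2iL-F was at the SL level for this gene, and Etv5 averaged 119.0 TPM in 2iL, 200.4 in 2iL-F and 164.6 in SL.

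**Figure D1:**
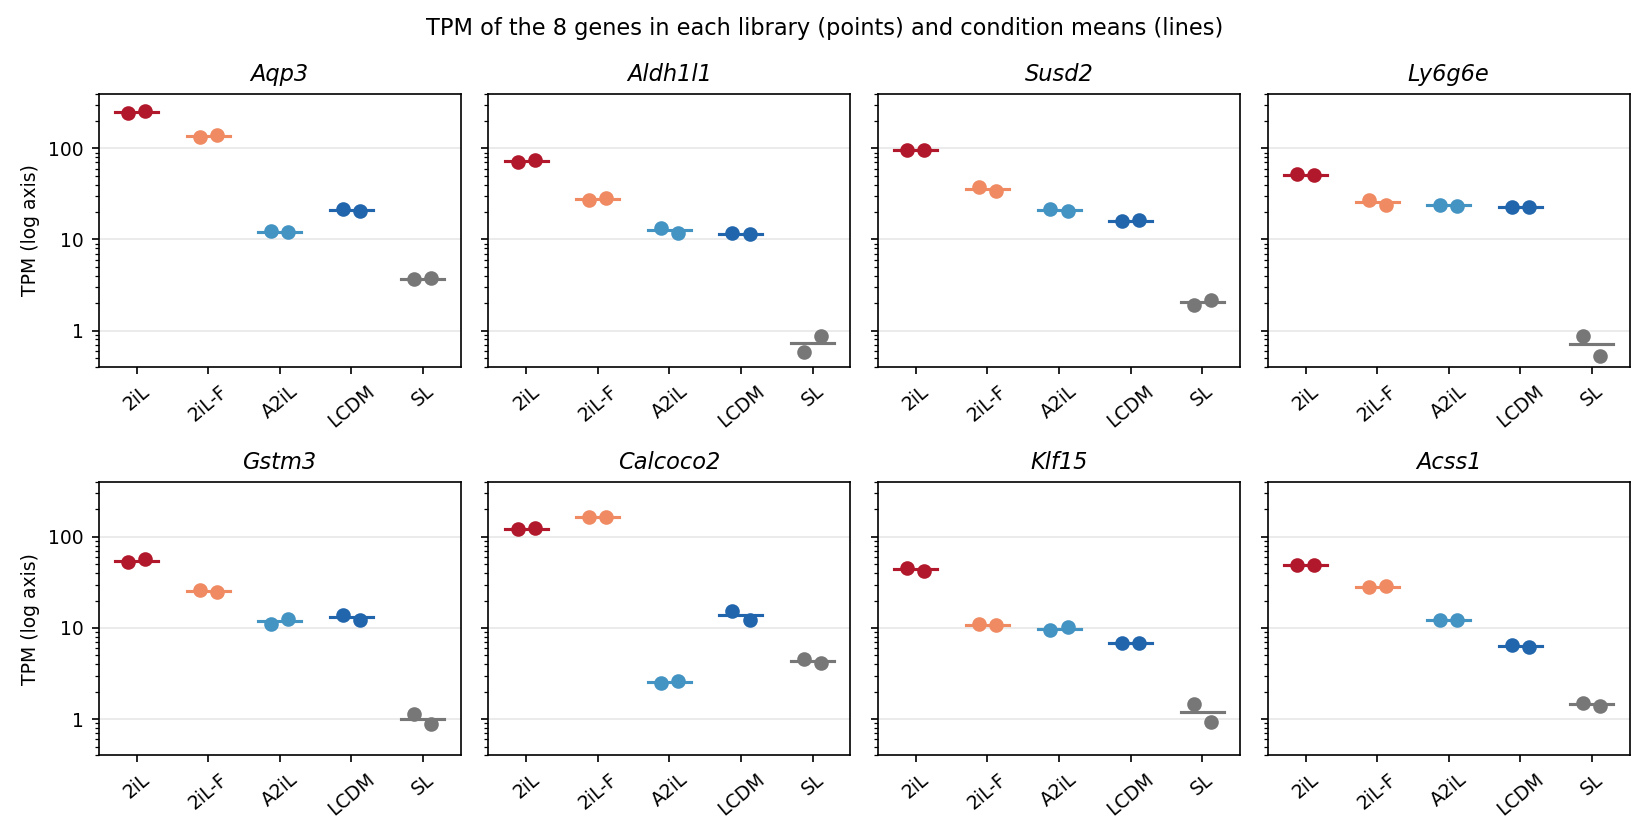
TPM of each of the 8 genes (vertical, log axis) in the 2 libraries of each condition (points), with condition means as lines. Calcoco2 is high only in 2iL and 2iL-F, Ly6g6e lies at about 23 to 27 TPM in 2iL-F, A2iL and LCDM, and Klf15 is far higher in 2iL than in the other 4 conditions.

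The 8 genes fell into different patterns across the conditions. By a fixed rule, a condition counted as raised over another at a difference of at least 1 in mean log2(TPM + 1) with its libraries apart. All but Calcoco2, 7 of the 8, were raised over SL in all of 2iL-F, A2iL and LCDM. Aqp3, Aldh1l1, Calcoco2 and Acss1 were raised in 2iL-F over both A2iL and LCDM. Aldh1l1, Susd2, Gstm3 and Klf15 were raised in 2iL over 2iL-F, which have the same medium. These patterns were common among strongly raised genes: of 145 tested genes at least 3 higher in 2iL than in SL, 50.3% met the first, 44.8% the second and 43.4% the last. Shares of 4 in 8 for the second and the last pattern are near that background. The first pattern uses the SL libraries and the last the 2iL libraries, which also chose the genes, so both only describe the set.

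The 8 genes were tested only between 2iL-F, A2iL and LCDM, whose libraries the rule did not use; genes outside the set were tested in other contrasts as well. Differences are of log2(TPM + 1) ± SE from limma with Benjamini-Hochberg adjustment over 14578 genes, called at an adjusted p below 0.05. In 2iL-F against A2iL, 6 of the 8 were higher and 0 lower, where 23% of all tested genes were called higher and 22.2% lower. In 2iL-F against LCDM, 7 were higher and 0 lower, against 27.2% and 32.3% of all genes. Against the mean of A2iL and LCDM, 7 were higher and 0 lower, against 25.4% and 27.9% of all genes. The 2iL libraries, which helped to choose the genes, had the same additions as 2iL-F, so the choice itself favoured rises in 2iL-F. The median of the last difference was 1.245 over the 145 strongly raised genes and -0.03 over all tested genes. In A2iL against LCDM, 3 were higher and 2 lower, against 22.9% and 31.1% of all genes. All 8 passed the filter of 1 TPM in 2 libraries also without the 2iL libraries, and 4 had at least 1 TPM in every library.

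Calcoco2 was the gene that followed the MEK inhibitor most closely. It had 120.9 and 125.0 TPM in 2iL, 164.5 and 166.7 in 2iL-F, 2.52 and 2.65 in A2iL, 15.3 and 12.4 in LCDM, and 4.54 and 4.15 in SL. Every library with PD0325901 was above 120 TPM and every library without it below 16. Its order was 2iL-F, 2iL, LCDM, SL and A2iL, with no overlap between conditions, and it was the one gene of the set that was lower in A2iL than in SL and higher in 2iL-F than in 2iL. Calcoco2 rose in 2iL-F by 5.54 ± 0.09 over A2iL (adjusted p = 5.5e-09, limma) and by 3.49 ± 0.09 over LCDM (adjusted p = 2.42e-08, limma), which are ratios of mean TPM of 64.0 and 11.9. The 2 media without the inhibitor differed as well, with A2iL below LCDM by -2.04 ± 0.09 (adjusted p = 5.06e-07, limma). Among the 145 strongly raised genes its difference between 2iL-F and the mean of A2iL and LCDM, 4.52, ranked 2.

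Aqp3 followed the inhibitor on top of a smaller rise in all serum-free media. It had 247 and 254 TPM in 2iL, 132 and 141 in 2iL-F, 12.3 and 12.2 in A2iL, 21.8 and 20.7 in LCDM, and 3.68 and 3.73 in SL. No conditions overlapped, and the gap between the inhibitor-containing and the other serum-free libraries was wider than the gap to SL. Aqp3 rose in 2iL-F by 3.37 ± 0.05 over A2iL (adjusted p = 4.48e-09, limma) and by 2.63 ± 0.05 over LCDM (adjusted p = 7.79e-09, limma). It was lower in A2iL than in LCDM, at -0.75 ± 0.05 (adjusted p = 7.2e-06, limma), the same direction as Calcoco2. Fibroblast markers were higher in 2iL-F than in the mean of A2iL and LCDM for 21 of 28 genes and lower for 2. Against A2iL alone 16 were higher and 10 lower, and against LCDM alone 26 were higher and 0 lower. Their part in the differences of Aqp3, Calcoco2 and the other members in these comparisons was not tested.

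Acss1 was intermediate. It had 48.6 and 49.0 TPM in 2iL, 28.1 and 28.9 in 2iL-F, 12.3 and 12.1 in A2iL, 6.50 and 6.12 in LCDM, and 1.51 and 1.40 in SL. The conditions formed 5 separate steps. Acss1 rose in 2iL-F by 1.16 ± 0.06 over A2iL (adjusted p = 1.18e-06, limma) and by 2.01 ± 0.06 over LCDM (adjusted p = 3.98e-08, limma). Here A2iL was above LCDM, by 0.85 ± 0.06 (adjusted p = 5.83e-06, limma), opposite in sign to Aqp3 and Calcoco2.

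Aldh1l1, Susd2 and Gstm3 shared a graded pattern, highest in 2iL, next in 2iL-F, lower in A2iL and LCDM, and lowest in SL. By condition means every member but Calcoco2 had this order, so the order is not particular to these 3 genes. Aldh1l1 had 70.2 and 75.1 TPM in 2iL, 27.3 and 28.6 in 2iL-F, 13.5 and 11.9 in A2iL, 11.8 and 11.4 in LCDM, and 0.580 and 0.873 in SL. Susd2 had 96.6 and 95.4 TPM in 2iL, 37.8 and 34.4 in 2iL-F, 21.8 and 20.7 in A2iL, 15.8 and 16.4 in LCDM, and 1.92 and 2.16 in SL. Gstm3 had 52.5 and 56.5 TPM in 2iL, 25.9 and 25.05 in 2iL-F, 11.01 and 12.6 in A2iL, 13.9 and 12.4 in LCDM, and 1.14 and 0.880 in SL. All libraries with the inhibitor were above all libraries without it, while A2iL and LCDM overlapped for Gstm3 and lay close for Aldh1l1. In 2iL-F against A2iL, Aldh1l1 rose by 1.08 ± 0.09 (adjusted p = 2.75e-05, limma), Gstm3 by 1.05 ± 0.09 (adjusted p = 3.57e-05) and Susd2 by 0.74 ± 0.06 (adjusted p = 3.21e-05). In 2iL-F against LCDM the rises were 1.20 ± 0.09 for Aldh1l1, 0.90 ± 0.09 for Gstm3 and 1.12 ± 0.06 for Susd2, with adjusted p of 1.12e-05, 6.28e-05 and 2.11e-06 (limma). Between A2iL and LCDM, Susd2 was higher in A2iL by 0.38 ± 0.06 (adjusted p = 0.0013, limma), and neither Aldh1l1 (0.12 ± 0.09, adjusted p = 0.315) nor Gstm3 (-0.15 ± 0.09, adjusted p = 0.222) passed. Over the 10 libraries the log2 values of these 3 genes correlated with each other at r of 0.991 to 0.997, a description in which the points share libraries and conditions. Klf15 and Acss1 were close behind, at r of 0.96 to 0.98 with each of the 3.

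Ly6g6e was higher in every serum-free medium than in SL, with no difference detected between 2iL-F and the media without the inhibitor. It had 52.8 and 50.5 TPM in 2iL, 27.4 and 23.9 in 2iL-F, 23.9 and 23.4 in A2iL, 22.8 and 23.0 in LCDM, and 0.882 and 0.529 in SL. The libraries of 2iL-F and A2iL overlapped, those of LCDM lay just below, and 2iL stood apart, at a ratio of 2.01 to 2iL-F. The difference between 2iL-F and the mean of A2iL and LCDM was 0.13 ± 0.09, with a 95% interval from -0.07 to 0.33 (adjusted p = 0.242, limma). Against A2iL alone the interval ran from -0.12 to 0.34 and against LCDM alone from -0.08 to 0.38, and A2iL against LCDM was at 0.04 ± 0.10 (adjusted p = 0.741, limma). Set against SL, the ratios of mean TPM were 36.3 in 2iL-F, 33.5 in A2iL and 32.5 in LCDM. The SL levels behind these ratios were under 1 TPM.

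Klf15 had the largest difference between 2iL and 2iL-F of the 8 genes, 1.92, which ranked 19 among the 145 strongly raised genes. It had 45.4 and 42.4 TPM in 2iL, 11.05 and 10.7 in 2iL-F, 9.52 and 10.2 in A2iL, 6.93 and 6.83 in LCDM, and 1.47 and 0.930 in SL. The 2iL libraries were at 4.03 times the 2iL-F level in the same medium, while 2iL-F, A2iL and LCDM stayed between 6.8 and 11.1 TPM. Klf15 did not pass in 2iL-F against A2iL, at 0.13 ± 0.11 with a 95% interval from -0.12 to 0.38 (adjusted p = 0.351, limma). It was higher in 2iL-F than in LCDM by 0.59 ± 0.11 (adjusted p = 0.0016, limma), and A2iL was higher than LCDM by 0.46 ± 0.11 (adjusted p = 0.00685, limma). Against the mean of A2iL and LCDM the rise of 0.36 ± 0.09 (adjusted p = 0.0111, limma) was lost when either 2iL-F library was left out, at adjusted p = 0.073 without replicate 3 and adjusted p = 0.0514 without replicate 5, where the remaining library is taken to vary like the other conditions.

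The difference between 2iL and SL can be written as the sum of 3 steps: the mean of A2iL and LCDM minus SL, 2iL-F minus that mean, and 2iL minus 2iL-F. Calcoco2 had 99.6% of its difference in the second step and -9.41% in the last. Aqp3 had 52.3% in the second step and 32.5% in the first. For Ly6g6e the first step made up 77.5% and the second 2.61%, and for Klf15 the first made up 47.7%, the second 8.32% and the last 44.0%. Aldh1l1, Susd2 and Gstm3 had 53.7% to 57.3% in the first step, 18.5% to 21.1% in the second and 22.3% to 27.8% in the last. Acss1 had 46.0%, 36.6% and 17.4%. The medians over the 145 strongly raised genes were 39.2%, 34.0% and 22.5%. SL and 2iL values enter these shares and also chose the genes, so they describe the set and test nothing.

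**Figure D2:**
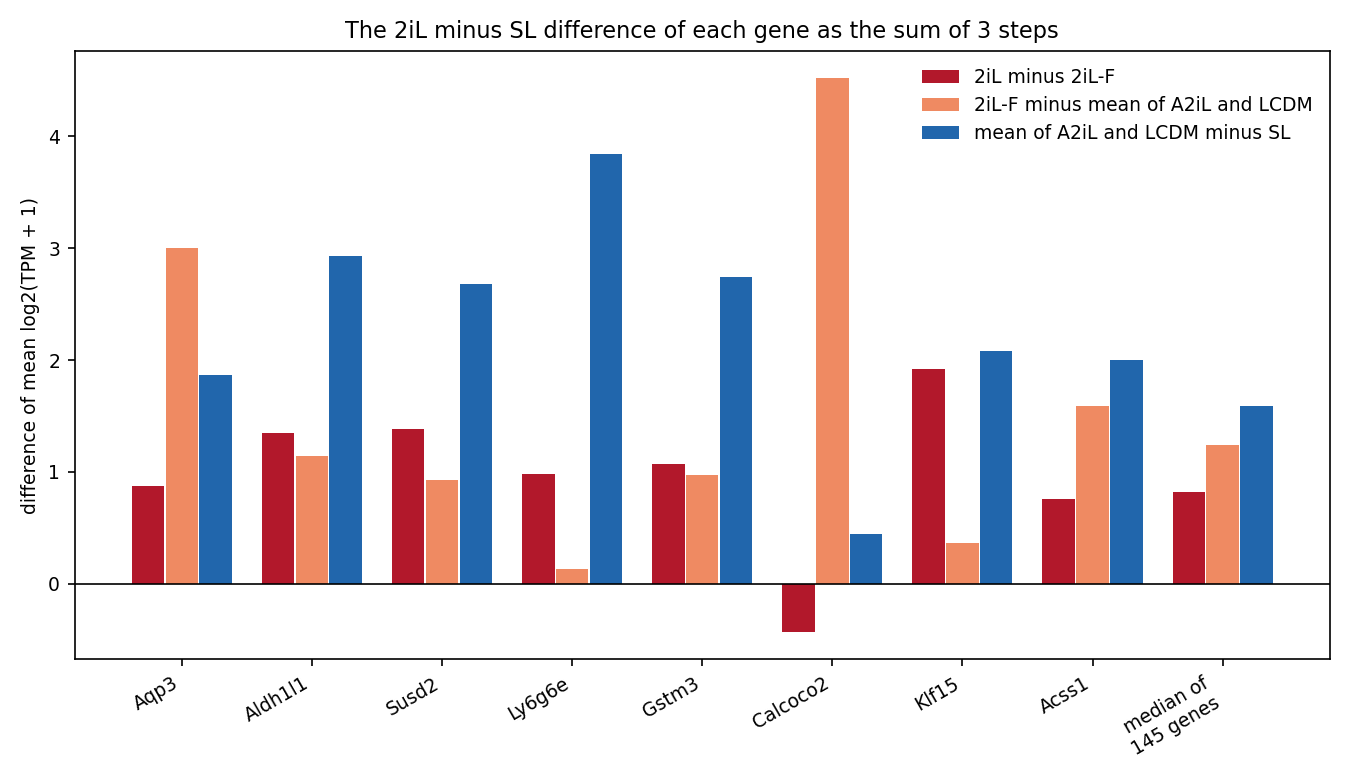
The 2iL minus SL difference of mean log2(TPM + 1) of each gene (vertical) split into 3 additive steps (bars), with the medians over 145 strongly raised genes at the right. The second step, 2iL-F minus the mean of A2iL and LCDM, is 4.52 for Calcoco2, 3.00 for Aqp3 and 0.13 for Ly6g6e, and the step from 2iL-F to 2iL is largest for Klf15 among the 8, at 1.92.

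**Figure D3:**
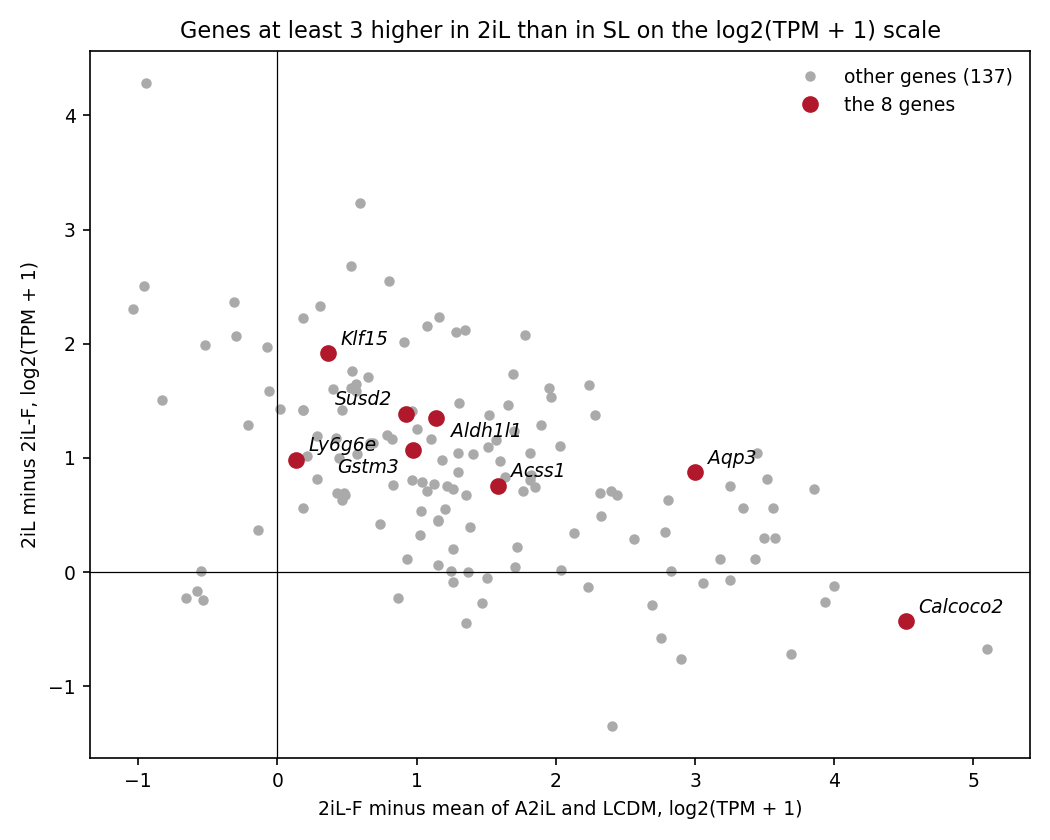
Each point is 1 of 145 tested genes at least 3 higher in 2iL than in SL, placed by 2iL-F minus the mean of A2iL and LCDM (horizontal) and by 2iL minus 2iL-F (vertical), both in log2(TPM + 1). Calcoco2 and Aqp3 lie to the right at 4.52 and 3.00, Klf15 lies high on the left at 0.36 and 1.92, and the other 5 genes lie within the bulk of the points.

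The comparison of 2iL with 2iL-F holds the medium constant and shares the 2iL libraries with the contrast that chose the genes. Ratios of mean TPM were 4.03 for Klf15, 2.66 for Susd2, 2.60 for Aldh1l1, 2.14 for Gstm3, 2.01 for Ly6g6e, 1.84 for Aqp3 and 1.71 for Acss1, and 0.742 for Calcoco2. Of the 28 fibroblast markers, 28 were lower in 2iL than in 2iL-F and 0 higher, with a median of -5.25 (32.5% of all genes tested were called higher and 29.2% lower, and the median of all was 0.02). The 6 embryonic stem cell markers differed by a median of 0.10, from -0.11 to 0.23, on the log2(TPM + 1) scale. The 10 tested naive pluripotency genes ranged more widely, from -1.73 for Klf4 to 0.70 for Pecam1. The differences of the 7 genes that were higher in 2iL ran from 0.76 to 1.92. What part the fibroblast RNA had in them was not tested. In bulk RNA, fewer cells of a type and less RNA per cell cannot be told apart.

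Relatives of the 8 genes had profiles of their own. Of the other aquaporins in the named lines, Aqp1, Aqp2, Aqp4, Aqp7, Aqp8 and Aqp9 averaged under 1 TPM in every condition, and Mip, the aquaporin of the lens, reached at most 1.31 TPM, in LCDM. Aldh1l2, the mitochondrial counterpart of Aldh1l1, averaged 1.40 ± 0.0426 TPM in 2iL, 4.04 ± 0.0670 in 2iL-F, 2.34 ± 0.101 in A2iL, 0.999 ± 0.182 in LCDM and 1.29 ± 0.0822 in SL, with its highest level in 2iL-F. Calcoco1, a paralog of Calcoco2, stayed between 12.8 and 17.5 TPM in all condition means, and in 2iL-F against the mean of A2iL and LCDM it did not pass, at -0.07 ± 0.06 (adjusted p = 0.352, limma). Acss2, the enzyme that makes acetyl-CoA outside mitochondria, averaged 13.2 ± 0.534 TPM in 2iL, 8.92 ± 0.0381 in 2iL-F, 4.19 ± 0.320 in A2iL, 6.78 ± 0.341 in LCDM and 3.37 ± 0.0325 in SL. Acss2 rose in 2iL over SL by 1.70 ± 0.07 (adjusted p = 7.63e-08, limma) and in 2iL-F over A2iL and LCDM by 0.64 ± 0.06 (adjusted p = 4.83e-05, limma). Acss3 stayed under 1 TPM.

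Among mu-class transferases, Gstm7 averaged 8.89 ± 0.204 TPM in 2iL, 3.86 ± 0.483 in 2iL-F, 2.87 ± 0.0503 in A2iL, 3.13 ± 0.378 in LCDM and 1.16 ± 0.117 in SL. Its order resembles that of Gstm3 at a lower level, with a rise of 2.19 ± 0.10 in 2iL over SL (adjusted p = 1.24e-07, limma). Gstm4 averaged 33.4 ± 1.64 TPM in 2iL, 12.3 ± 0.604 in 2iL-F, 12.4 ± 0.317 in A2iL, 21.8 ± 0.541 in LCDM and 10.4 ± 0.477 in SL. Its level in 2iL-F was close to that in A2iL and below that in LCDM, and the difference from the mean of both was -0.40 ± 0.05 (adjusted p = 0.000411, limma). Gstm5 fell in 2iL against SL, at -0.50 ± 0.10 (adjusted p = 0.00162, limma). The KLF family was divided too: Klf5, a naive pluripotency factor, rose in 2iL over SL by 1.40 ± 0.05 and Klf6 fell by 1.50 on the log2 scale, while Klf4 averaged 155.0 ± 2.18 TPM in 2iL, 517 ± 27.7 in 2iL-F, 558 ± 7.199 in A2iL, 570 ± 5.22 in LCDM and 185 ± 3.64 in SL. Klf4 and Klf15 thus had different extremes, with Klf4 low and Klf15 high in the 2iL libraries.

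**Figure D4:**
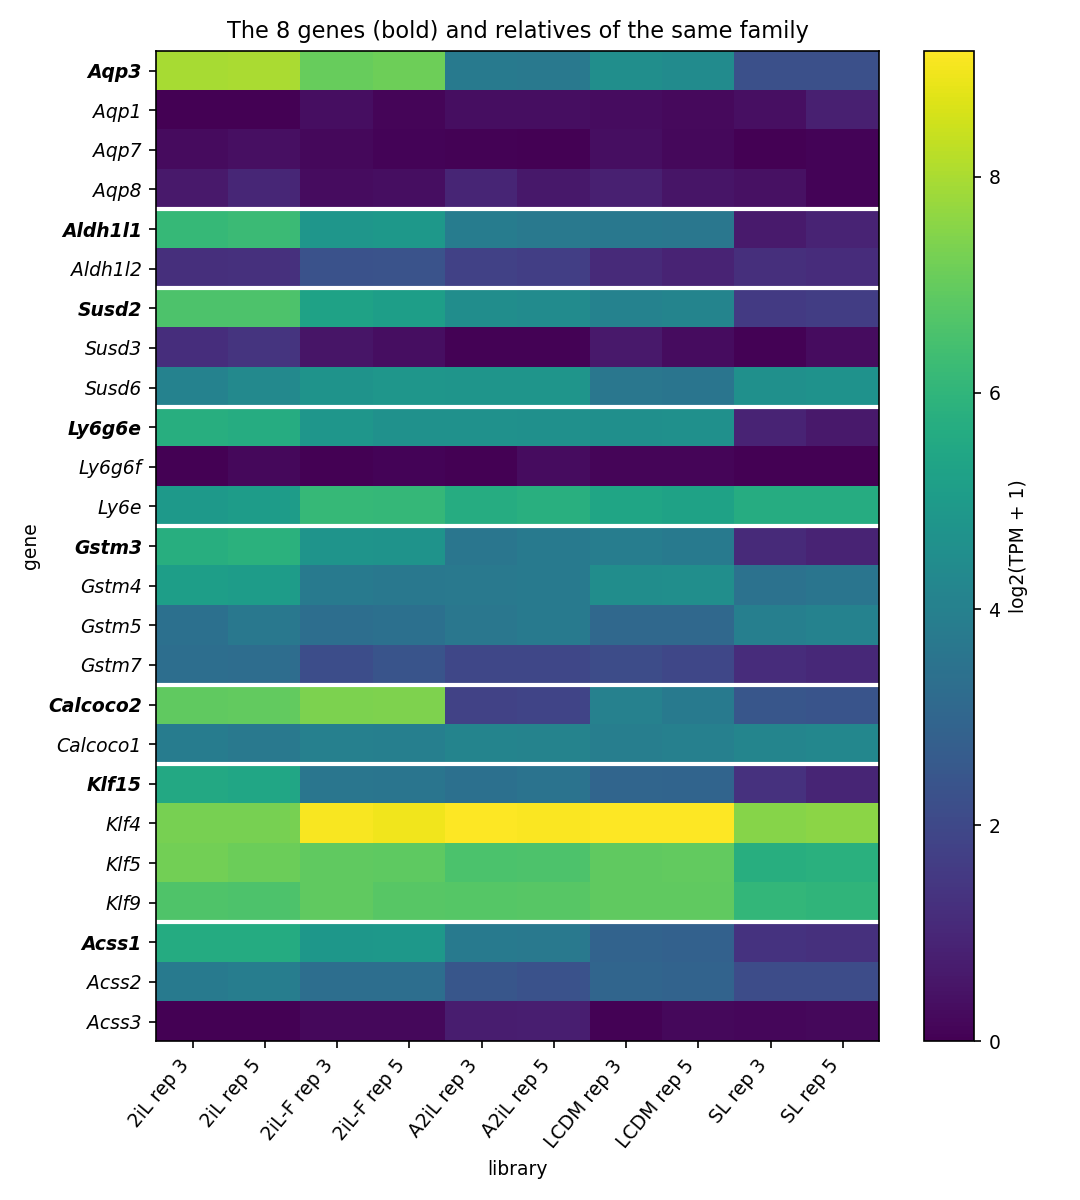
Log2(TPM + 1) (colour) of the 8 genes, in bold, and of relatives (rows) in the 10 libraries (columns), with white lines between families. Calcoco2 spans 2.52 to 166.7 TPM while the condition means of its paralog Calcoco1 stay between 12.8 and 17.5 TPM.

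Most of the lists of related genes held members that rose and members that fell. In each list below the 8 genes are left out, and the background in 2iL against SL was 36.7% of genes called higher and 40.9% lower, with a median of -0.04 over all genes. All 28 fibroblast markers were lower in 2iL than in SL, and the part of fibroblast RNA in the changes below was not tested. For folate and one-carbon metabolism, 8 of 21 tested genes rose and 8 fell (median 0.07). Mthfd2l, a mitochondrial folate enzyme at under 2 TPM in every condition, fell by 1.45 on the log2 scale (adjusted p = 3.78e-06, limma). Its paralog Mthfd2 rose by 1.76 ± 0.05 and Amt of the glycine cleavage system by 1.59 ± 0.08, while Gldc of the same system fell by 1.10 on the log2 scale (adjusted p = 6.11e-09, 1.62e-07 and 2.66e-08, limma). For acetate and acetyl-CoA, 10 of 15 rose and 3 fell (median 0.36), and Slc16a3, a lactate transporter, fell by 2.38. For glutathione S-transferases, 8 of 15 rose and 5 fell (median 0.42), with Mgst1 at -3.09 ± 0.11. For a list of autophagy receptors, ATG8 proteins and a kinase, 6 of 15 rose and 6 fell (median 0.04). Those that rose were mostly ATG8 proteins and those that fell mostly receptors. Retreg1, a receptor for the endoplasmic reticulum, rose by 2.06 ± 0.08. For aquaporins and glycerol metabolism, 6 of 12 rose and 3 fell (median 0.13), and for the KLF family 4 of 8 rose and 3 fell (median 0.19). For the LY6 family 2 of 4 rose and 2 fell, and for sushi-domain genes 2 of 7 rose and 4 fell.

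The same lists were set in 2iL-F against A2iL and against LCDM, where all genes had the shares of calls given above, and several lists differed between these comparisons. Aquaporin and glycerol genes had 4 of 12 higher and 0 lower against A2iL, and 1 higher and 6 lower against LCDM. Acetyl-CoA genes had 5 of 15 higher and 1 lower against A2iL, and 4 higher and 8 lower against LCDM. Sushi-domain genes had 2 of 7 higher and 0 lower against A2iL, and 6 higher and 0 lower against LCDM. That list includes Svep1 and Srpx2, which were listed at 0 in 2iL. Svep1 averaged 3.45 TPM in 2iL-F, 3.03 in A2iL and 0.416 in LCDM, and Srpx2 2.31 TPM in 2iL-F, 2.46 in A2iL and 0.284 in LCDM, an order in which the fibroblast sum was also lower in LCDM than in A2iL and 2iL-F. The list of autophagy receptors and ATG8 proteins had 5 of 15 higher and 5 lower against A2iL, and 6 higher and 3 lower against LCDM. Against the mean of A2iL and LCDM, Gabarapl2, an ATG8 protein, was at 0.88 ± 0.05 and Optn, a receptor, at -1.18 ± 0.09 (adjusted p = 1.85e-06 and 1.62e-05, limma). Folate genes had 10 of 21 higher and 5 lower against A2iL, and 8 higher and 9 lower against LCDM, with Folr1, a folate receptor, at 1.32 ± 0.09 and Gldc at -1.86 ± 0.03 against the mean of both (adjusted p = 7.38e-06 and 7.84e-09, limma). Glutathione S-transferases had 4 of 15 higher and 7 lower against A2iL, and 5 higher and 6 lower against LCDM. KLF genes had 1 of 8 higher and 2 lower against A2iL, and 1 higher and 3 lower against LCDM, and LY6 genes 2 of 4 higher and 1 lower against A2iL, and 3 higher and 1 lower against LCDM. ERK readout genes had 0 of 14 higher and 14 lower against A2iL, and 1 higher and 13 lower against LCDM.

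Klf15 and Aldh1l1 are neighbours. In GENCODE vM21 on mm10, Klf15 lies on chromosome 6 from 90462576 to 90475238 and Aldh1l1 from 90486427 to 90600203, both on the plus strand with 11188 bases between them. RefSeq for the same build extends Klf15 from 90461043 to 90491803, past that start of Aldh1l1, and starts Aldh1l1 at 90550768. The annotation behind the TPM is not given in the sources used here, so reads of the stretch between could have been counted for either. The next protein-coding gene beyond Aldh1l1, Slc41a3, a magnesium transporter, had 9.85 and 13.2 TPM in 2iL, 6.72 and 5.55 in 2iL-F, 3.67 and 2.26 in A2iL, 4.21 and 4.06 in LCDM, and 1.71 and 2.44 in SL. It rose in 2iL over SL by 2.02 ± 0.20 (adjusted p = 1.85e-05, limma). Vsx1, a homeobox gene beside Acss1, had 2.29 and 2.09 TPM in 2iL, 0.401 and 0.161 in 2iL-F, and under 0.1 in every other library. Its difference between 2iL and SL was 1.65 on the same scale. Slc41a3 and Vsx1 were singled out after their values were seen, so these differences are descriptions without a test. Neighbours of other members had similar means in 2iL and SL. Examples are Nol6 beside Aqp3 (73.9 TPM in 2iL and 82.7 in SL) and Cabin1 beside Susd2 (15.7 TPM in 2iL and 13.9 in SL).

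The other members lie apart from each other. Acss1 is on chromosome 2 from 150618105 to 150668500, Gstm3 on chromosome 3 from 107963696 to 107969283, Aqp3 on chromosome 4 from 41092722 to 41098183, Susd2 on chromosome 10 from 75636706 to 75644008 and Calcoco2 on chromosome 11 from 96099326 to 96111964, all on the minus strand of mm10. Ly6g6e is on chromosome 17 from 35076902 to 35078804 on the plus strand and overlaps Ly6g6d on the other strand. Of the 50-base words of GENCODE transcripts, Susd2 and Klf15 shared 0% with other genes, Aqp3 0.169% and Acss1 0.584%. The share was 461 of 4601 words for Aldh1l1, mostly with the antisense Gm15756, 10.2% for Calcoco2, mostly with Gm11701, 181 of 1390 words for Ly6g6e, with Ly6g6d, and 28.8% for Gstm3, with Gm8834, Gstm2-ps1, Gstm1 and Gstm6 among others. The level of Gstm3 is thus less certain than the others, since its reads can be divided among near copies, and without strand in the counting, which is not stated, reads of Ly6g6e and Ly6g6d could not be told apart.

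RefSeq promoters of GRCm38.p6 were at hand for 5 of the 8 genes, Aqp3, Aldh1l1, Gstm3, Klf15 and Acss1. The 250 bases before the start that the promoter table uses are shown for the neighbours Klf15 and Aldh1l1, for Acss1, whose known activator is Klf15, and for Aqp3, the member with the highest level, each 5′ to 3′ on the strand of its gene. Capitals mark matches on either strand to an E-box, a GC box, a TATA box or a CCAAT box, whose letters follow below; no 2 of the capital runs overlap. For Klf15 that start is the GENCODE one and lies inside the longer RefSeq gene given above, and for Aldh1l1 it lies just inside the RefSeq gene, so neither window is the sequence before the outermost RefSeq start. The Acss1 window lies wholly inside the GENCODE gene given above, as does that of Aldh1l1, far from its GENCODE start. The Gstm3 window, not shown, partly overlaps its GENCODE gene.
Klf15, chr6:90462326-90462575, plus strand: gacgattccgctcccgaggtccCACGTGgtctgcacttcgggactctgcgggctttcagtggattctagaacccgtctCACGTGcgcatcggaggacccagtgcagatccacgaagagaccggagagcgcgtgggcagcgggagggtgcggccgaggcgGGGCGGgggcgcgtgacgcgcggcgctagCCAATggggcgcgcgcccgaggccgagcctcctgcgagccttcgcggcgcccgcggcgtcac
Aldh1l1, chr6:90550543-90550792, plus strand: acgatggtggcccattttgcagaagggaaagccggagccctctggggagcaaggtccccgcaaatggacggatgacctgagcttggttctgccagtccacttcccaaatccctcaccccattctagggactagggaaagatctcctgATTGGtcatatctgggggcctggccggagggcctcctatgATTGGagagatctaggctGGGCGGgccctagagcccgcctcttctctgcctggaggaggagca
Acss1, chr2:150668241-150668490, minus strand: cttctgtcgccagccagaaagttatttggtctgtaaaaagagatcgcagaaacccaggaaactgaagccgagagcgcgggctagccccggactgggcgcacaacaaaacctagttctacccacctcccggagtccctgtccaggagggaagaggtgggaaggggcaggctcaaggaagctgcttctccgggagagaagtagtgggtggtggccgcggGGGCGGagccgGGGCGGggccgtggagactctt
Aqp3, chr4:41098184-41098433, minus strand: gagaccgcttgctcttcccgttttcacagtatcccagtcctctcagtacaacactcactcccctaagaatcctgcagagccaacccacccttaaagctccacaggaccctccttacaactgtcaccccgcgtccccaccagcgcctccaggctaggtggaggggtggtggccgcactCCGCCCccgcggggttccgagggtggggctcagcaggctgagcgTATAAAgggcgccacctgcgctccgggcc

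A GC box, searched as GGGCGG, was found in all 5 of these promoters, once in Klf15, Aldh1l1, Aqp3 and Gstm3 and 2 times in Acss1, and in 32.7% of the 32851 mouse promoters searched. The 5 were also rich in G and C, at 56.0% to 72.0%, against a median of 52.4% for all promoters. The E-box, with the letters CACGTG, occurred 2 times in Klf15 and in none of the other 4, and in 6.02% of all promoters. The box named by its letters CCAAT occurred 2 times in Aldh1l1 and 1 time in Klf15 (33.8% of all), and the TATA box, searched as TATAAA, 1 time in Aqp3 (12.4% of all). An ESRRB half-site (AAGGTCA) and a STAT site (TTCNNNGAA) were found in 0 of the 5, against 4.08% and 7.02% of all promoters, and a TCF site (CTTTGA) in Gstm3 alone (13.8% of all). Such matches are letters in a window and do not show binding.

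Genes with the most similar profiles were sought among 6578 named genes over the 10 libraries. Calcoco2 was closest to Mras, a RAS-related GTPase (r = 0.9954), and Mme, the membrane peptidase neprilysin (r = 0.9951). Mras averaged 24.5 TPM in 2iL, 27.2 in 2iL-F, 6.18 in A2iL, 11.9 in LCDM and 7.98 in SL, with the same order at the top and A2iL lowest, but a far smaller range than Calcoco2. Mcm5, of the replicative helicase, was also near (r = 0.9939) with a range of only 210 to 271 TPM, so r does not measure size. Aqp3 was closest to Tacc2, Pcsk6 and Gltp (r = 0.9957 to 0.9908). Aldh1l1, Susd2 and Gstm3 had Fads1, a fatty acid desaturase, and Ildr1 among their 3 nearest genes, with Fads1 at 124 TPM in 2iL, 88.6 in 2iL-F, 66.5 in A2iL, 68.1 in LCDM and 30.4 in SL. Ly6g6e was closest to Pycard, an inflammasome adaptor (r = 0.9934), Klf15 to the chloride transporter gene Clcn6 (r = 0.993) and Acss1 to Hexa, a lysosomal hexosaminidase (r = 0.9936).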

How the data were processed

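RNA of the 10 libraries was extracted with a Qiagen kit and made into libraries with the NEBNext Ultra kit, per the labels' protocols. The submitters' processing notes name mm10, Bowtie2, RSEM, DESeq2 and R 3.4.2, without other versions or a role for each. What was deposited is TPM per gene, a unit that sums to a fixed total per library, and the listed lines hold 71.0% to 73.0% of it. TPM keep no depth, so counting error is unknown. Farther down the table symbols stand off their values: from line 10011 to 17803 the value 1 line below separated broadly expressed from restricted families (area under the curve 0.961) and the own line did not (0.609), against 0.992 for the own line above. Genes are named only from the upper part.

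Log2(TPM + 1) was fitted with limma 3.58.1 in R 4.3.3 (eBayes with trend, 1 mean per condition, all 10 libraries, 5 residual degrees of freedom) on 14578 lines with at least 1 TPM in 2 libraries, with two-sided p-values adjusted by Benjamini-Hochberg and a threshold of 0.05. The fit was tested on simulated data. The genes, lists and contrasts were chosen with earlier results of these data known. Similar genes were the 3 highest in Pearson r per member, with at least 5 TPM in some library. List genes named were taken from the up to 3 called genes per list and direction with the largest change in 2iL against SL or in 2iL-F against A2iL and LCDM, not all of which are named, and from relatives of a member and the ERK and pluripotency genes. Alternatives were another scaling, pseudocount or filter, 6 libraries only, robust eBayes, leaving out each library, and the replicate number as a block. Python 3.11.15, pandas 2.3.3 and matplotlib 3.10.9 were used.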

Additional observations from a re-analysis of the deposited data

How the results depend on the processing

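Over 18 settings, the 32 tests of members between 2iL-F, A2iL and LCDM gave 576 values, of which 574 kept direction and side of the threshold, 2 lost their call and 0 reversed. The 2 were Klf15 in 2iL-F against the mean of A2iL and LCDM, 0.34 without 2iL-F replicate 3 and 0.38 without replicate 5. In both fits the 2iL-F mean rested on a single library. The call stood when a library of any other condition was left out. With only the 6 libraries of A2iL, LCDM and 2iL-F, none of which chose the genes, the calls of the members stood. With each library left out, genes called were 5724 to 8424 for 2iL-F against A2iL and LCDM, 4977 to 7382 against A2iL, 7129 to 9215 against LCDM, and 6244 to 8595 for A2iL against LCDM. The replicate numbers are not explained in the labels, and deviations of same-numbered libraries correlated at -0.131 to 0.075. A replicate block gave 7565, 6397, 8452 and 7604 calls in these comparisons and changed no member's call. Of 200 values for differences without a test, 0 changed sign and 55 moved by more than the replicate spread, 32 of them with a pseudocount of 0.1: Aldh1l1 in 2iL against SL was then at 6.48 and passed Aqp3 at 6.04. Unknown depth limits values near 1 TPM, which here are those of SL.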

Other observations

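3 further lists bear on the roles of these genes, in 2iL against SL, where 36.7% of all genes were called higher and 40.9% lower. Fibroblast markers were lower in 2iL than in SL, and their part in the changes of these lists was not tested. The first covers breakdown of branched-chain amino acids and alanine, in which Klf15 is known to act in muscle and liver. It also holds Prodh, Aldh4a1, Oat and Tdh, which act on other amino acids. Of its 17 tested genes, 13 were higher, Aldh4a1 and Tdh among them, and 1, Prodh, was lower, with a median of 0.71. The largest rise was that of Gpt2, a mitochondrial alanine aminotransferase. Gpt2 averaged 184.5 TPM in 2iL, 59.7 in 2iL-F, 32.7 in A2iL, 51.6 in LCDM and 17.4 in SL. Hibadh, a dehydrogenase of valine breakdown, rose by 1.43 ± 0.06 and Aldh6a1 by 1.55 ± 0.10, and Prodh, proline dehydrogenase, fell by 1.05 (adjusted p = 6.53e-08, 1.03e-06 and 5.31e-05, limma). The list was also higher than SL in the other serum-free media, comparisons that share the SL libraries. In 2iL-F 12 of 17 genes were higher and 3 lower (28.1% and 37.3% of all genes). The median of the list over SL was 0.27 in 2iL-F, 0.21 in A2iL and 0.52 in LCDM. In 2iL-F against A2iL and LCDM the list had 4 of 17 higher and 6 lower. In 2iL against 2iL-F it had 11 of 17 higher and 2 lower, with a median of 0.32 (32.5% and 29.2% of all genes). All 28 fibroblast markers were lower in 2iL there as well. Klf15 was lower in 2iL-F, A2iL and LCDM than in 2iL but above SL. Its ratios of mean TPM to SL were 9.06 in 2iL-F, 8.19 in A2iL and 5.72 in LCDM. A link between Klf15 and the list was not tested.

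Genes known to be induced by glucocorticoids, a list that also holds Klf15, had 7 of 13 other tested genes higher and 5 lower. Ddit4 rose by 1.92 ± 0.10 and Pdk4, which inhibits pyruvate dehydrogenase, by 1.88 ± 0.13, while the receptor gene Nr3c1 fell by 2.45 (adjusted p = 2.97e-07, 2.16e-06 and 9.06e-09, limma). Targets of NRF2, the regulator known for many glutathione enzymes, had 4 of 16 higher and 11 lower, with a median of -0.85. A link between NRF2 and the level of Gstm3 was not tested.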
